A study of Homo sapiens with 12 samples.

Results

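The endoplasmic reticulum (ER) chaperone and unfolded protein response genes measured here were 36 genes chosen by symbol, and each was found as 1 of the 60617 genes in the count table. The choice was made with earlier results of these data known, so counts set beside all genes are description and not an independent test. All 36 were among the 20360 genes that passed the filter on low counts. They were ordered into 8 roles: Hsp70 and Hsp90 chaperones, lectin chaperones, protein disulfide isomerases, oxidases, J-domain proteins with SDF2L1, ER-associated degradation, sensors with transcription factors, and secreted stress proteins. NCI-H295R, an established human adrenocortical carcinoma line that makes steroid hormones, was treated in 4 groups, with 3 biological replicates per group by the labels. EZH2i cells received the EZH2 inhibitor EPZ-6438 at 62 µM over 96 h. CBPi cells received PRI-724, labelled as an inhibitor of CBP, at 26 µM over 96 h. FSK cells received vehicle for 48 h and 10 µM forskolin, an activator of adenylyl cyclase, for the next 48 h. Baseline cells received the vehicle DMSO over 96 h. The inhibitor doses are given as IC50 doses, forskolin was present for a shorter time than either inhibitor, and no protein, splice form or histone mark was measured. All groups come from a single cell line, so the p-values measure the spread between its replicate cultures.

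The ER folds secreted and membrane proteins with the help of the Hsp70 chaperone BiP, lectins that bind unfinished sugar chains, and enzymes that form disulfide bonds. When unfolded protein builds up, the sensors IRE1 (gene ERN1), ATF6 and PERK (gene EIF2AK3) start the unfolded protein response: IRE1 splices XBP1 mRNA into a form that encodes an active transcription factor, ATF6 is cut free from the membrane to act as one, and PERK slows translation while favouring that of ATF4. ATF6 and XBP1 raise chaperones and the machinery of ER-associated degradation, which moves misfolded proteins to the proteasome. In steroid-making cells the smooth ER also houses many steroidogenic enzymes.

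Total counts ran from 20.6 to 31.5 megacounts per library. CBPi replicate 2 differed most from its replicates, by chi-squares per degree of freedom of 13.6 to 14.8 in the 2 pairs that include it, where the other 10 replicate pairs had 2.75 to 7.38. All 10 adrenocortical markers were detected in every group, and their levels in CPM (TMM-scaled counts per megacount) summed to between 1877 and 1916 in EZH2i libraries, 1632 and 1825 in CBPi libraries and 9283 and 9487 in FSK libraries, against 3913 to 4100 at baseline. The 8 fibroblast markers summed to between 71.7 and 77.4 CPM in EZH2i libraries, 51.9 and 56.5 in CBPi libraries and 39.1 and 39.4 in FSK libraries, against 68.3 to 71.3 at baseline. The 4 endothelial markers summed to between 2.55 and 3.71 CPM in EZH2i libraries, 0.348 and 0.58 in CBPi libraries and 0.941 and 1.24 in FSK libraries, against 0.368 to 0.935 at baseline. The 5 leukocyte markers summed to at most 2.01 CPM in any library. Their sum was 1.34 to 2.01 CPM in FSK libraries, against 0.988 to 1.20 at baseline. In EZH2i and CBPi libraries it overlapped baseline. The sum of every marker list thus differed from baseline with some agent, and their part in the results on the ER genes was not tested. Single markers did not all move with their sum. With FSK, 9 adrenocortical markers were higher and 1 lower (adjusted p below 0.05, edgeR's quasi-likelihood test). Of 6 fibroblast markers tested 2 were higher and 4 lower, and of 2 endothelial markers 1 and 1, beside 25.5% and 25.1% of all genes. With EZH2i, 1 fibroblast marker was higher and 3 lower, beside 29.5% and 28.3%.

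The promoters of several of these genes hold the ER stress element (ERSE; CCAAT, 9 bases, CCACG), the sequence through which NF-Y with ATF6 or XBP1 is known to act. It was first described on promoters of BiP and its relatives, so its presence among these genes is background and not an independent result. Both strands of the RefSeq promoter windows (GRCh38.p14, 300 bases each, of which 250 lie before the gene start) were searched for these exact letters. Windows were matched for 33 of the 36 genes, all but PDIA3, DERL1 and DERL3. An exact ERSE was found in 8 of the 33 genes (24.2%), against 25 of all 27305 genes with a window (0.0916%, or 0.0769% of 35116 windows). The matched sites are shown because they mark the genes whose levels are described next. Each is written 5′ to 3′ along the strand that carries it, with the CCAAT and CCACG blocks in capitals.
HSPA5 ERSE, chr9:125241391-125241409: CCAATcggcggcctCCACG
HSP90B1 ERSE, chr12:103930216-103930234: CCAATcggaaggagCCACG
HSP90B1 ERSE, chr12:103930321-103930339: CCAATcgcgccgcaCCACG
CALR ERSE, chr19:12938384-12938402: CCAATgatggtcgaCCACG
CANX ERSE, chr5:179698778-179698796: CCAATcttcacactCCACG
PDIA6 ERSE, chr2:10812853-10812871: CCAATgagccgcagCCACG
ERO1B ERSE, chr1:236282183-236282201: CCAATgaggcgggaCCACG
XBP1 ERSE, chr22:28800603-28800621: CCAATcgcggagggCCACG
CRELD2 ERSE, chr22:49918554-49918572: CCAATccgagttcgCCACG
The related ERSE-II (ATTGG, 1 base, CCACG) was found in 3 of the 33 genes (9.09%), against 19 of all genes with a window (0.0696%, or 0.0541% of windows), and HYOU1 held it in 2 places. Its blocks ATTGG and CCACG are in capitals.
HYOU1 ERSE-II, chr11:119057274-119057284: ATTGGaCCACG
HYOU1 ERSE-II, chr11:119057380-119057390: ATTGGaCCACG
SDF2L1 ERSE-II, chr22:21642114-21642124: ATTGGtCCACG
HERPUD1 ERSE-II, chr16:56932025-56932035: ATTGGgCCACG

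The 250 bases before the gene start are shown for 4 genes, 1 chaperone with an ERSE (HSPA5), 1 with both ERSE-II copies (HYOU1), the transcription factor gene XBP1, and HERPUD1, a degradation gene that differed by more than 1.5-fold between agents. Sequences run 5′ to 3′ along the strand of the gene, capitals mark matched blocks, and a site on the other strand appears as its complement.
HSPA5 promoter, chr9:125241344-125241593, minus strand: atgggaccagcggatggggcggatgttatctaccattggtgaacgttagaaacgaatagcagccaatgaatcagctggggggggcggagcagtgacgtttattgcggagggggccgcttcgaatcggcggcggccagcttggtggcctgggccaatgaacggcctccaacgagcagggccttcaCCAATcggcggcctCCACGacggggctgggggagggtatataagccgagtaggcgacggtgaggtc
HYOU1 promoter, chr11:119057206-119057455, minus strand: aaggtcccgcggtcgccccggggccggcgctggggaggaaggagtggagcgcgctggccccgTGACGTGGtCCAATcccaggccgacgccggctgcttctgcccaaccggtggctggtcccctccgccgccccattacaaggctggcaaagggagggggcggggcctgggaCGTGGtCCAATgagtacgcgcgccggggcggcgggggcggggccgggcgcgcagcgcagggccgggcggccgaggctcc
XBP1 promoter, chr22:28800570-28800819, minus strand: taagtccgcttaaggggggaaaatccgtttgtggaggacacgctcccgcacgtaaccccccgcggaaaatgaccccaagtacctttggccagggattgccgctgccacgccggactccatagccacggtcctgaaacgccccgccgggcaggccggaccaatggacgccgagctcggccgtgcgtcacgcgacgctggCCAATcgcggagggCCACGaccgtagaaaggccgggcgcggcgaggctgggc
HERPUD1 promoter, chr16:56931892-56932141, plus strand: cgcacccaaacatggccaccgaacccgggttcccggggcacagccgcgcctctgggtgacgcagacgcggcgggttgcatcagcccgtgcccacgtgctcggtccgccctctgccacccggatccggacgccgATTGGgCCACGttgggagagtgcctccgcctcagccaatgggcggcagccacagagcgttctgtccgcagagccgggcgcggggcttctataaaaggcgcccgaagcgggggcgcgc
The HSPA5 and XBP1 sites start 66 and 52 bases before the gene start. In HYOU1 the upstream ERSE-II overlaps a match to the core of the unfolded protein response element (UPRE), TGACGTGG, which DNAJC10 also held; that core was in 2 of the 33 genes (6.06%), against 0.927% of all genes with a window and 0.729% of windows. The cAMP response element TGACGTCA was in 1, CREB3L2 (3.03%), against 2.25% of all genes with a window and 1.85% of windows. The amino acid response element TGATGCAAT, to which ATF4 binds, was in 0 of the 33, against 0.293% of genes and 0.236% of windows. Any of ERSE, ERSE-II and the UPRE core was in 12 of the 33 genes (36.4%), against 1.08% of all genes with a window and 0.857% of windows. A match is a stretch of letters, and no binding was measured.

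**Figure D1:**
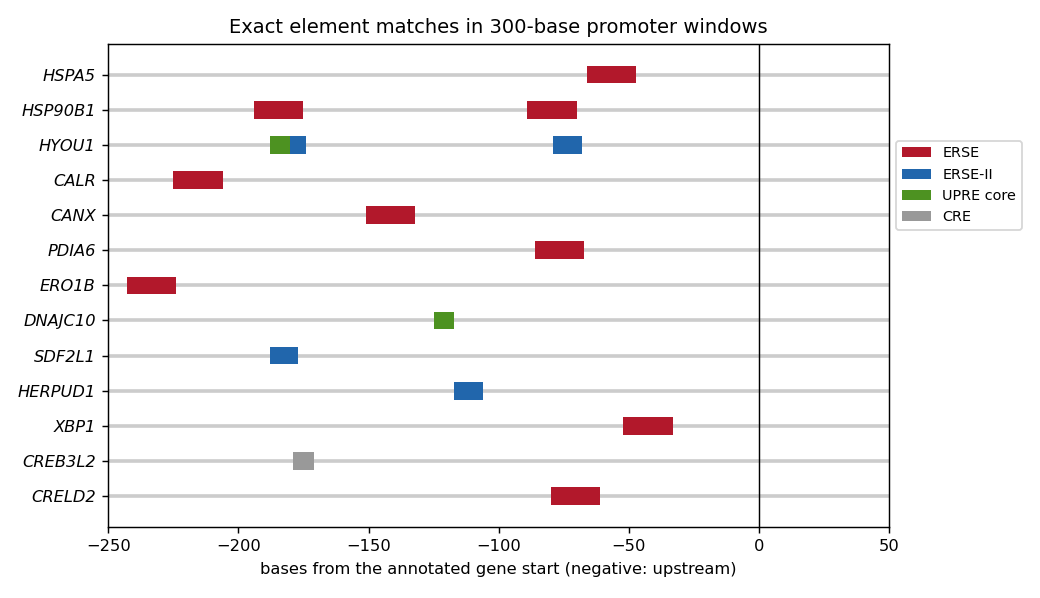
Positions of exact element matches in the RefSeq promoter windows of the ER genes that hold one, as distance in bases from the gene start (0, negative upstream). Each bar is 1 match, coloured by element (CRE, the cAMP response element), CANX is drawn in 1 of its overlapping windows, and the 2 ERSE-II matches of HYOU1 and the 2 ERSE matches of HSP90B1 lie upstream of the start.

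The first comparison asked what EPZ-6438 did to these genes, and most of them rose. With EZH2i, 25 of the 36 were higher than at baseline (adjusted p below 0.05, edgeR's quasi-likelihood test with p-values adjusted by Benjamini-Hochberg over all genes tested), where 29.5% of all genes tested were higher. The 4 that fell were EDEM2, SYVN1, ERN1 and CREB3, beside 28.3% of all genes, and P4HB, ERO1A, ERO1B, DERL1, DERL2, SELENOS and ATF6 did not pass. The median log2 fold change was 0.44, against 0.024 over all genes. A test against a change of 1.5-fold called 8 higher (HSPA5, HYOU1, DNAJB9, DNAJC3, EDEM1, XBP1, CREB3L2 and MANF; background 6.62%) and 0 lower (background 4.79%), by edgeR's glmTreat, with 0 lower at an unadjusted p below 0.05. In bulk RNA, fewer cells of a type and less RNA per cell cannot be told apart.

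The second comparison asked the same of PRI-724. With CBPi, 28 of the 36 genes were higher than at baseline, where 29.8% of all genes tested were higher. CREB3 was the 1 that fell, beside 29.0% of all genes, and ERO1A, SDF2L1, EDEM2, DERL3, ERN1, CREB3L1 and CRELD2 did not pass. The median log2 fold change was 0.35, against 0.015 over all genes. In glmTreat, 10 genes were called higher by over 1.5-fold (HSPA5, HYOU1, DNAJB9, DNAJC3, DNAJC10, HERPUD1, SEL1L, EDEM1, XBP1 and CREB3L2; background 6.09%). It called 0 lower (background 6.14%), with 0 lower at an unadjusted p below 0.05. Some genes without this call, such as HSPA13, had estimates past 1.5-fold.

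The third comparison asked what forskolin did. With FSK, 30 of the 36 genes were higher than at baseline, where 25.5% of all genes tested were higher. ERO1B and CREB3L1 fell, 2 genes beside 25.1% of all genes, and PDIA3, PDIA5, HERPUD1 and DERL3 did not pass. The median log2 fold change was 0.45, against 0.015 over all genes. In glmTreat against 1.5-fold, 5 were called higher (HSPA5, P4HB, ERN1, XBP1 and CREB3; background 5.34%) and 1 lower (CREB3L1; background 6.45%). Some genes without this call, such as SDF2L1 (higher) and ERO1B (lower), had estimates past 1.5-fold. The 3 comparisons share the baseline libraries, so their calls are not independent of each other. Summed over the 36 genes, the share of all counts was 1.05% ± 0.018 with EZH2i, 1.11% ± 0.016 with CBPi and 1.04% ± 0.015 with FSK, against 0.752% ± 0.007 at baseline (SD, n = 3).

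**Figure D2:**
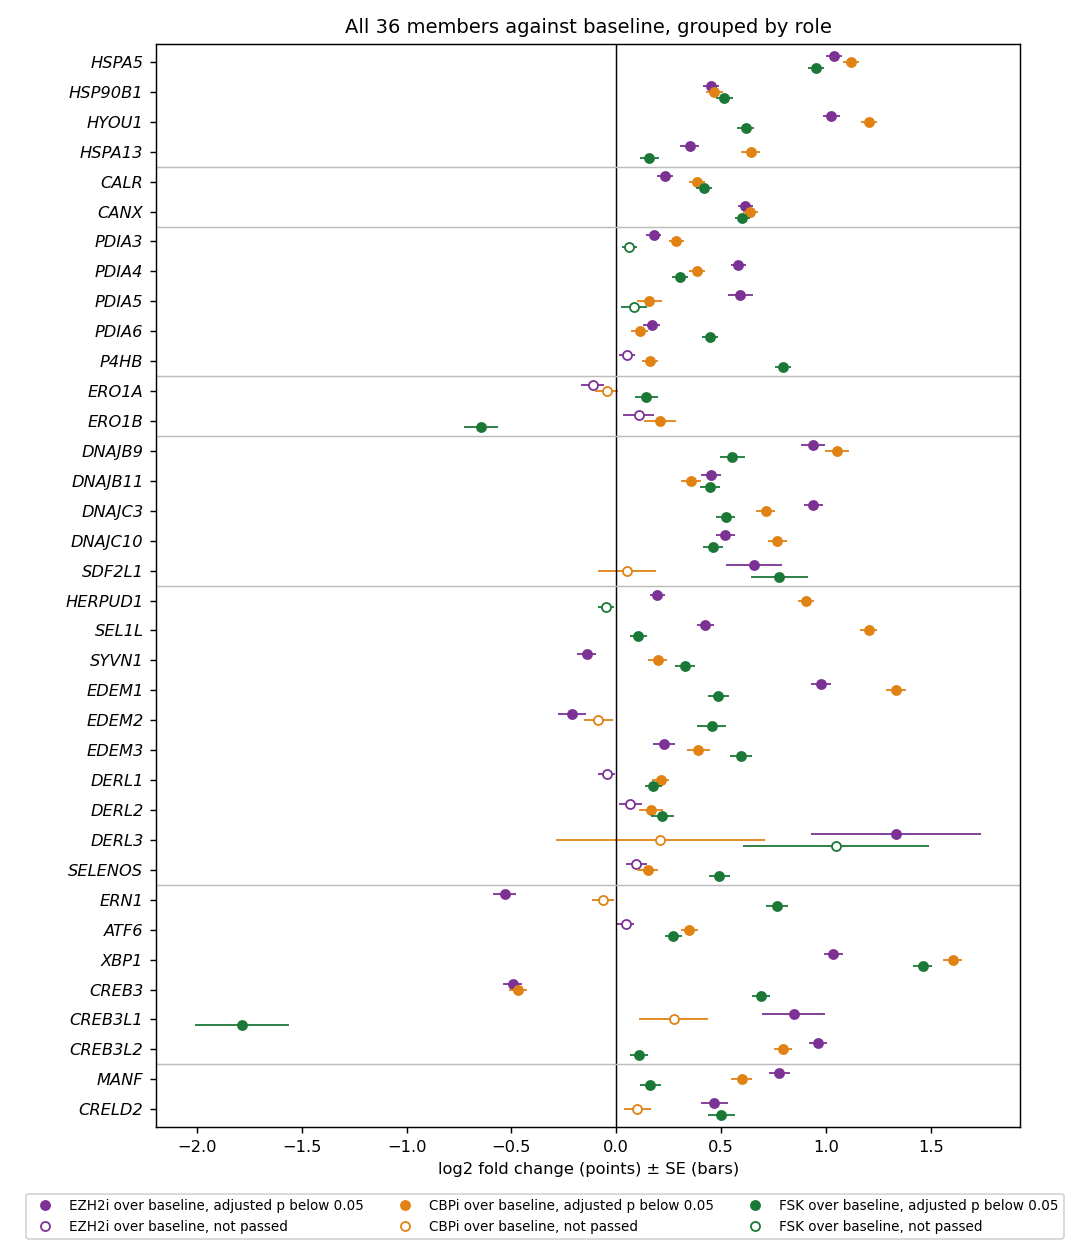
Log2 fold change over baseline of each of the 36 ER genes with EZH2i, CBPi and FSK, with bars for the SE; filled points passed an adjusted p below 0.05 and lines part the 8 roles. Most points lie right of 0, and the FSK point of CREB3L1 at -1.78 lies farthest left.

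Among the Hsp70 and Hsp90 chaperones, all 4 rose with each agent. HSPA5 (chr9:125234853-125241330, minus strand, GENCODE 29), which encodes BiP, the Hsp70 that holds unfolded proteins and keeps the stress sensors inactive, had 1782, 1792 and 1722 CPM in the EZH2i libraries, 1938, 1808 and 1859.6 in the CBPi libraries and 1653, 1648 and 1689 in the FSK libraries, against 839.8, 854 and 886 at baseline. Every treated library lay above every baseline library. Among the treated groups the FSK libraries were lowest and the CBPi libraries highest, without overlap, though the gaps were small beside the distance from baseline. The change was 2.05-fold with EZH2i, 2.17-fold with CBPi and 1.93-fold with FSK, or log2 fold changes of 1.04 ± 0.038 with EZH2i (adjusted p = 9.16e-15), 1.12 ± 0.038 with CBPi (adjusted p = 2.44e-15) and 0.95 ± 0.037 with FSK (adjusted p = 2.1e-14). HYOU1 (chr11:119044189-119057202, minus strand), a large Hsp70 relative that exchanges nucleotide on BiP, had 618, 628 and 603 CPM in the EZH2i libraries, 733, 666 and 695 in the CBPi libraries and 469, 457 and 468 in the FSK libraries, against 308, 299 and 302 at baseline. Here the FSK libraries lay between baseline and the inhibitor groups, with no overlap of any treated group with baseline. On the log2 scale HYOU1 changed by 1.03 ± 0.039 with EZH2i (adjusted p = 2.35e-14), 1.20 ± 0.04 with CBPi (adjusted p = 1.65e-15) and 0.62 ± 0.039 with FSK (adjusted p = 4.54e-11). HSP90B1, the ER Hsp90 (GRP94), was more even, at 851 ± 22.4 CPM with EZH2i, 860.0 ± 39.4 with CBPi and 888 ± 26.9 with FSK, against 622 ± 5.30 at baseline (SD, n = 3), with log2 fold changes of 0.45 with EZH2i, 0.47 with CBPi and 0.51 with FSK. HSPA13, a small ER Hsp70, had 146 ± 0.755 CPM with EZH2i, 179 ± 5.75 with CBPi and 128 ± 5.82 with FSK, against 115 ± 4.99 at baseline. Its log2 fold changes were 0.35 ± 0.045 with EZH2i (adjusted p = 1.33e-06), 0.64 ± 0.045 with CBPi (adjusted p = 2.21e-10) and 0.16 ± 0.045 with FSK (adjusted p = 0.00671), and the FSK call was lost when libraries were scaled by their size alone (log2 fold change 0.088, adjusted p = 0.107).

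The lectin chaperones CALR (calreticulin) and CANX (calnexin), which hold glycoproteins during folding, rose with each agent. CANX had 1053, 1056 and 1038 CPM in the EZH2i libraries, 1054, 1087 and 1059 in the CBPi libraries and 1066, 1005 and 1044 in the FSK libraries, against 682, 685 and 686 at baseline. Its treated groups lay together and clear of baseline, with log2 fold changes of 0.62 ± 0.035 with EZH2i (adjusted p = 9.23e-12), 0.64 ± 0.035 with CBPi (adjusted p = 4.49e-12) and 0.60 ± 0.035 with FSK (adjusted p = 1.01e-11). CALR averaged 932 ± 18.2 CPM with EZH2i, 1036 ± 17.4 with CBPi and 1062 ± 40.5 with FSK, against 793 ± 25.1 at baseline (SD, n = 3). These are log2 fold changes of 0.23 ± 0.038 with EZH2i (adjusted p = 2.95e-05), 0.38 ± 0.038 with CBPi (adjusted p = 4.07e-08) and 0.42 ± 0.038 with FSK (adjusted p = 1.26e-08). Levels per kilobase of gene length put CALR first of the 36 at baseline, at 292 ± 9.26 CPM per kb, above HSPA5 at 219 ± 6.09. HSPA5 was first in the treated groups, at 450.2 ± 9.72 CPM per kb with EZH2i, 477 ± 16.6 with CBPi and 424 ± 5.73 with FSK, where CALR had 344 ± 6.72, 382 ± 6.40 and 391 ± 14.9 in the same order of groups. HSPA5 and CALR were thus the highest of the 36 per length in each group, and DERL3 and CREB3L1 the lowest.

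The disulfide isomerases, which make and reshuffle disulfide bonds, did not all move alike. P4HB (PDI, also the beta subunit of collagen prolyl hydroxylase) had 850.1, 869.6 and 829.8 CPM in the EZH2i libraries, 948, 883 and 917 in the CBPi libraries and 1422, 1386 and 1459.5 in the FSK libraries, against 801, 843 and 817 at baseline. The FSK libraries stood well above the rest, and the EZH2i libraries overlapped baseline. Log2 fold changes were 0.051 ± 0.038 with EZH2i (adjusted p = 0.272), 0.16 ± 0.038 with CBPi (adjusted p = 0.00142) and 0.79 ± 0.039 with FSK (adjusted p = 6.17e-13). PDIA5 showed another order, with 31.4, 31.0 and 31.9 CPM in the EZH2i libraries, 24.0, 23.8 and 22.2 in the CBPi libraries and 21.8, 21.2 and 23.4 in the FSK libraries, against 20.4, 21.4 and 20.8 at baseline. The EZH2i libraries were the high ones, at a log2 fold change of 0.59 ± 0.058 (adjusted p = 3.55e-08). With CBPi PDIA5 was 0.16 ± 0.061 (adjusted p = 0.0321), a call lost without any 1 of 4 libraries: baseline replicate 1 (log2 fold change 0.14, adjusted p = 0.0958), baseline replicate 3 (log2 fold change 0.15, adjusted p = 0.0753), CBPi replicate 1 (log2 fold change 0.14, adjusted p = 0.101) or CBPi replicate 2 (log2 fold change 0.13, adjusted p = 0.108). That call was also lost with no filter (log2 fold change 0.16, adjusted p = 0.115), DESeq2 (log2 fold change 0.15, adjusted p = 0.0867) and a fit of only the 2 groups (log2 fold change 0.15, adjusted p = 0.0709). With FSK it was 0.083 ± 0.061 (adjusted p = 0.28). PDIA4, which carries an extra thioredoxin domain, averaged 548 ± 4.61 CPM with EZH2i, 478 ± 16.5 with CBPi and 453 ± 11.7 with FSK, against 366 ± 4.19 at baseline (SD, n = 3). It rose with each agent, most with EZH2i, by log2 fold changes of 0.58 with EZH2i, 0.38 with CBPi and 0.30 with FSK. PDIA6, which also acts on the stress sensors, rose by log2 fold changes of 0.17 with EZH2i, 0.11 with CBPi and 0.45 with FSK. The CBPi call of PDIA6 (adjusted p = 0.0193) was lost without CBPi replicate 1 (log2 fold change 0.087, adjusted p = 0.0977), CBPi replicate 3 (log2 fold change 0.11, adjusted p = 0.0521), baseline replicate 2 (log2 fold change 0.11, adjusted p = 0.0527) or baseline replicate 3 (log2 fold change 0.10, adjusted p = 0.0682). It was also lost with no filter (log2 fold change 0.11, adjusted p = 0.0766) or a fit of only the 2 groups (log2 fold change 0.10, adjusted p = 0.0532). PDIA3, the partner of the lectin chaperones, rose with EZH2i (0.18) and CBPi (0.29) and was 0.062 with FSK (adjusted p = 0.165). Reads of its pseudogenes PDIA3P1 and PDIA3P2, which came to 13.8% of its own counts, could be split between the copies.

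The oxidases ERO1A and ERO1B pass electrons from the isomerases to oxygen, and ERO1B fell with forskolin. ERO1B had 19.8, 23.1 and 21.9 CPM in the EZH2i libraries, 23.8, 23.6 and 22.2 in the CBPi libraries and 13.1, 11.5 and 13.8 in the FSK libraries, against 19.2, 19.7 and 21.2 at baseline. The FSK libraries lay below every other library, and the EZH2i libraries overlapped baseline. Its log2 fold changes were 0.11 ± 0.074 with EZH2i (adjusted p = 0.23), 0.21 ± 0.075 with CBPi (adjusted p = 0.0225) and -0.64 ± 0.081 with FSK (adjusted p = 1.16e-06), and the FSK fall is 1.56-fold. The CBPi call was lost without CBPi replicate 1 (log2 fold change 0.19, adjusted p = 0.0647), CBPi replicate 2 (log2 fold change 0.18, adjusted p = 0.0599), baseline replicate 1 (log2 fold change 0.18, adjusted p = 0.0847) or baseline replicate 2 (log2 fold change 0.19, adjusted p = 0.0748). Its neighbour GPR137B, which overlaps it on the opposite strand, had log2 fold changes of 0.52 with EZH2i, 0.59 with CBPi and 0.037 with FSK. ERO1A had 48.8, 46.6 and 47.4 CPM in the EZH2i libraries, 50.9, 48.9 and 49.9 in the CBPi libraries and 52.7, 56.9 and 61.1 in the FSK libraries, against 49.5, 51.9 and 53.0 at baseline. All groups overlapped baseline except EZH2i, and the log2 fold changes were -0.11 ± 0.054 with EZH2i (adjusted p = 0.0796), -0.046 ± 0.055 with CBPi (adjusted p = 0.488) and 0.14 ± 0.054 with FSK (adjusted p = 0.0342). For ERO1A the FSK call was lost without FSK replicate 2 (log2 fold change 0.14, adjusted p = 0.0688), FSK replicate 3 (log2 fold change 0.088, adjusted p = 0.214), baseline replicate 1 (log2 fold change 0.11, adjusted p = 0.138) or baseline replicate 2 (log2 fold change 0.15, adjusted p = 0.0688). It was also lost with no filter (log2 fold change 0.13, adjusted p = 0.113), DESeq2 (log2 fold change 0.13, adjusted p = 0.0695) and scaling by library size alone (log2 fold change 0.073, adjusted p = 0.27). Its EZH2i difference passed, as a fall, without baseline replicate 1 (log2 fold change -0.14, adjusted p = 0.0489) and in a fit of only the 2 groups (log2 fold change -0.13, adjusted p = 0.0194).

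J-domain proteins hand substrates to BiP and start its ATP cycle. DNAJB9 (ERdj4), which also represses IRE1, had 60.2, 57.0 and 58.7 CPM in the EZH2i libraries, 60.9, 64.8 and 64.6 in the CBPi libraries and 49.0, 41.4 and 44.3 in the FSK libraries, against 29.8, 31.1 and 30.9 at baseline. The treated groups were clear of baseline, the inhibitor groups higher than FSK, with log2 fold changes of 0.94 ± 0.058 with EZH2i (adjusted p = 3.9e-11), 1.05 ± 0.059 with CBPi (adjusted p = 6.75e-12) and 0.55 ± 0.06 with FSK (adjusted p = 1.53e-07). PNPLA8 and THAP5 overlap DNAJB9 on the opposite strand. PNPLA8 had log2 fold changes of -0.03 with EZH2i, -0.016 with CBPi and 0.29 with FSK, and THAP5 had 0.12, 0.30 and -0.072. DNAJC3 (P58IPK), an inhibitor of the PERK kinase, had 234, 225 and 221 CPM in the EZH2i libraries, 194, 197 and 189 in the CBPi libraries and 166, 162 and 180.3 in the FSK libraries, against 120.1, 121 and 113 at baseline. All treated libraries again lay above baseline, here with EZH2i highest, and log2 fold changes were 0.94 ± 0.046 with EZH2i (adjusted p = 8.38e-13), 0.71 ± 0.046 with CBPi (adjusted p = 5.79e-11) and 0.52 ± 0.046 with FSK (adjusted p = 7.36e-09). DNAJC10 (ERdj5), a reductase that opens disulfide bonds before degradation, rose by log2 fold changes of 0.52 with EZH2i, 0.77 with CBPi and 0.46 with FSK. DNAJB11 (ERdj3), a soluble BiP cofactor, rose by log2 fold changes of 0.45 with EZH2i, 0.36 with CBPi and 0.45 with FSK. SDF2L1, a stress-induced partner of DNAJB11, had 146, 149.6 and 141 CPM in the EZH2i libraries, 109.9, 71.2 and 106 in the CBPi libraries and 148, 152 and 175 in the FSK libraries, against 90.2, 92.7 and 94.0 at baseline. CBPi replicate 2 stood apart from the other CBPi libraries and below the baseline group. SDF2L1 was 0.66 ± 0.14 with EZH2i (adjusted p = 0.0019), 0.05 ± 0.14 with CBPi (adjusted p = 0.778) and 0.78 ± 0.14 with FSK (adjusted p = 0.000773). Without CBPi replicate 2 the CBPi comparison passed (log2 fold change 0.21, adjusted p = 0.00268).

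**Figure D3:**
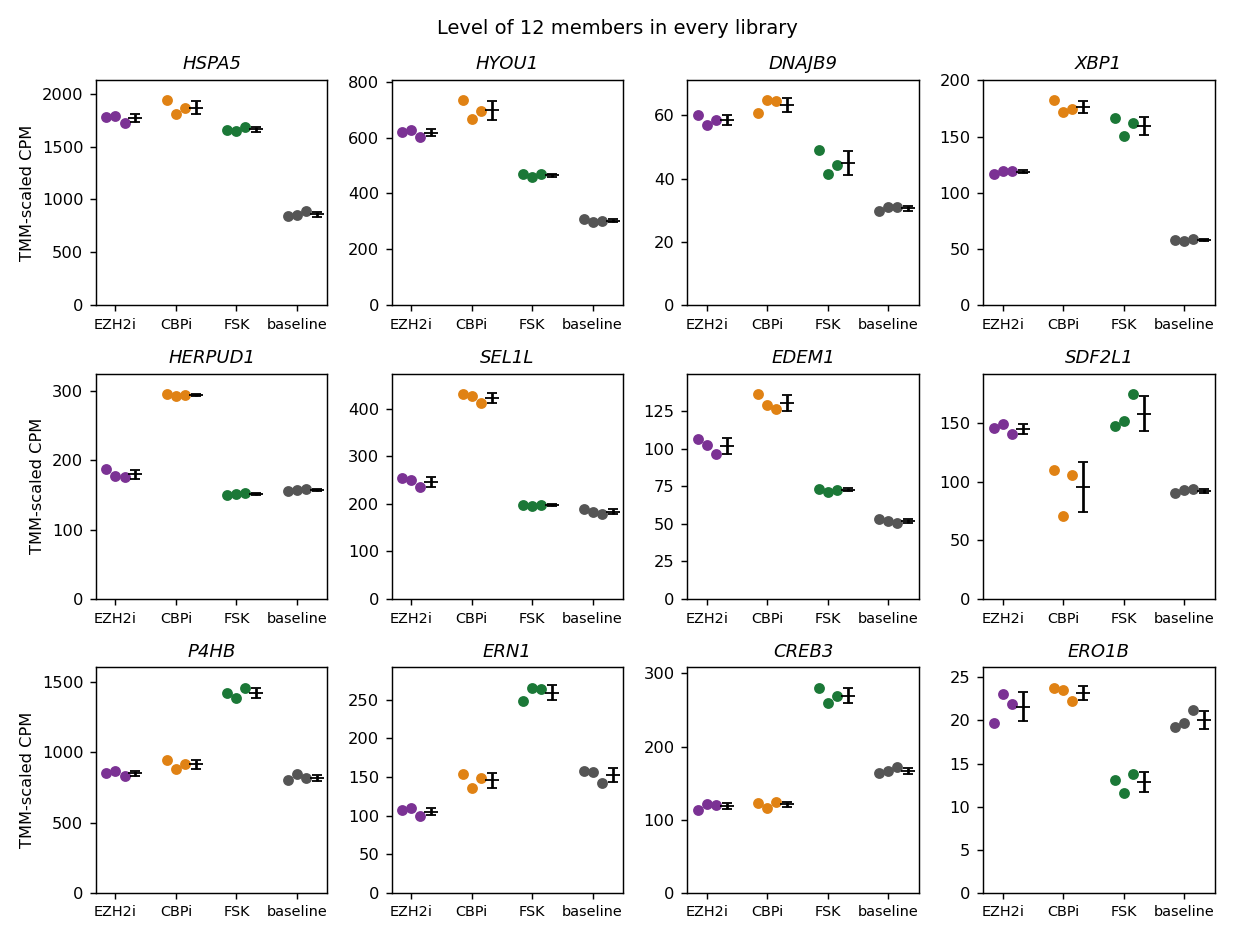
Level of 12 of the ER genes in every library, in TMM-scaled CPM on axes that start at 0, with 1 panel per gene, points for the 3 libraries of a group and black bars for their mean ± SD. HSPA5 and XBP1 are higher in every treated library than at baseline, HERPUD1 and SEL1L stand out with CBPi, P4HB, ERN1 and CREB3 are highest with FSK, and ERO1B is lowest with FSK.

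Genes of ER-associated degradation differed in which agent raised them. EDEM1, which trims mannose from glycoproteins bound for degradation, had 106, 103 and 96.2 CPM in the EZH2i libraries, 136, 129 and 126 in the CBPi libraries and 73.4, 71.5 and 72.7 in the FSK libraries, against 52.9, 51.6 and 50.6 at baseline. It was above baseline in every treated library and highest with CBPi, with log2 fold changes of 0.98 ± 0.048 with EZH2i (adjusted p = 1.05e-12), 1.33 ± 0.048 with CBPi (adjusted p = 7.46e-15) and 0.49 ± 0.049 with FSK (adjusted p = 5.17e-08). SEL1L, the adaptor of the HRD1 ubiquitin ligase, had 255, 249 and 235 CPM in the EZH2i libraries, 431, 427 and 412 in the CBPi libraries and 198, 196 and 198 in the FSK libraries, against 189.9, 183 and 178 at baseline. The CBPi libraries stood far above all others, the EZH2i libraries next, and the FSK libraries just above baseline. That gave log2 fold changes of 0.42 ± 0.041 with EZH2i (adjusted p = 2.53e-08), 1.20 ± 0.041 with CBPi (adjusted p = 3.1e-15) and 0.10 ± 0.041 with FSK (adjusted p = 0.0398). The small FSK difference of SEL1L was lost without any 1 of 5 libraries, namely baseline replicate 2 or 3 or FSK replicate 1, 2 or 3 (adjusted p of 0.0591 to 0.166, log2 fold changes of 0.081 to 0.11). It was also lost with no filter (log2 fold change 0.092, adjusted p = 0.19), DESeq2 (log2 fold change 0.094, adjusted p = 0.0843), RLE size factors (log2 fold change 0.094, adjusted p = 0.069) and scaling by library size alone (log2 fold change 0.036, adjusted p = 0.507). HERPUD1 (chr16:56932048-56944863, plus strand), a membrane protein that gathers the HRD1 complex, had 187, 177 and 175 CPM in the EZH2i libraries, 295, 292 and 293 in the CBPi libraries and 149.7, 152 and 153 in the FSK libraries, against 155, 157 and 158 at baseline. It was raised mainly in the CBPi libraries, and the FSK libraries lay just below baseline without overlap. HERPUD1 log2 fold changes were 0.20 ± 0.038 with EZH2i (adjusted p = 0.000162), 0.91 ± 0.038 with CBPi (adjusted p = 7.18e-14) and -0.049 ± 0.038 with FSK (adjusted p = 0.302), and scaling by library size alone brought the FSK difference past the threshold (log2 fold change -0.12, adjusted p = 0.013).

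SYVN1, which encodes HRD1 itself, the ligase that SEL1L and HERPUD1 serve, took another course. SYVN1 had 165, 166 and 172 CPM in the EZH2i libraries, 221, 196 and 218 in the CBPi libraries and 232, 229.9 and 233 in the FSK libraries, against 177, 184 and 193 at baseline. Its EZH2i libraries lay just below baseline and its CBPi and FSK libraries above. The log2 fold changes were -0.14 ± 0.046 with EZH2i (adjusted p = 0.0133), 0.20 ± 0.046 with CBPi (adjusted p = 0.00107) and 0.33 ± 0.046 with FSK (adjusted p = 5.39e-06), and the fall with EZH2i was lost without baseline replicate 3 (log2 fold change -0.11, adjusted p = 0.0709). FAU, which overlaps SYVN1 on the same strand, had log2 fold changes of -0.79 with EZH2i, -0.15 with CBPi and 0.016 with FSK. EDEM2, which starts mannose trimming, was -0.21 ± 0.068 with EZH2i (adjusted p = 0.0117), -0.087 ± 0.069 with CBPi (adjusted p = 0.291) and 0.45 ± 0.067 with FSK (adjusted p = 9.69e-06). The EZH2i fall of EDEM2 was lost without EZH2i replicate 1 (log2 fold change -0.19, adjusted p = 0.0504) or baseline replicate 3 (log2 fold change -0.16, adjusted p = 0.0796). EDEM3, the third enzyme of that family, rose by log2 fold changes of 0.23 with EZH2i, 0.39 with CBPi and 0.59 with FSK. Of the derlins, channel proteins of this pathway, DERL1 was -0.046 with EZH2i (adjusted p = 0.348) and rose on the log2 scale by 0.21 with CBPi and 0.18 with FSK. DERL2 was 0.067 with EZH2i (adjusted p = 0.303) and rose on the log2 scale by 0.17 with CBPi and 0.22 with FSK. Its CBPi call was lost without CBPi replicate 2 (log2 fold change 0.14, adjusted p = 0.0541), baseline replicate 1 (log2 fold change 0.13, adjusted p = 0.0822) or baseline replicate 2 (log2 fold change 0.16, adjusted p = 0.0539), and with no filter (log2 fold change 0.16, adjusted p = 0.0539). SELENOS, a selenoprotein of the retrotranslocation complex, was 0.095 with EZH2i (adjusted p = 0.111) and rose on the log2 scale by 0.15 with CBPi and 0.49 with FSK. The CBPi call of SELENOS was lost without CBPi replicate 2 (log2 fold change 0.11, adjusted p = 0.0788) or baseline replicate 1 (log2 fold change 0.13, adjusted p = 0.0633), and scaling by library size alone gave it an EZH2i call (log2 fold change 0.12, adjusted p = 0.0461).

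DERL3, the stress-induced derlin, was near the detection limit, with raw counts of 18 to 28 in EZH2i libraries, 6 to 10 in CBPi libraries and 8 to 18 in FSK libraries, against 4 to 8 in baseline libraries. With counts this low, its EZH2i call is no support for the count above. The log2 fold change with EZH2i was 1.33 ± 0.41 (adjusted p = 0.00832), and the call was lost without EZH2i replicate 2 (log2 fold change 1.07, adjusted p = 0.0523) or baseline replicate 2 (log2 fold change 0.98, adjusted p = 0.0709). With FSK it was 1.05 ± 0.44 (adjusted p = 0.0551), and it passed without FSK replicate 2 (log2 fold change 1.32, adjusted p = 0.0213) and with no filter (log2 fold change 1.03, adjusted p = 0.044). With CBPi it was 0.21 ± 0.50 (adjusted p = 0.74). The far more abundant SMARCB1 overlaps DERL3 on the opposite strand, and the reads of overlapping genes cannot be told apart where the counting ignored strand.

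Among the sensors and transcription factors, XBP1 rose most with each agent. XBP1 (chr22:28794555-28800597, minus strand) had 117, 119.6 and 119 CPM in the EZH2i libraries, 182, 172 and 175 in the CBPi libraries and 167, 151 and 162 in the FSK libraries, against 58.1, 56.8 and 59.1 at baseline. Every treated library was above every baseline library, and the CBPi libraries were highest. The change was 2.05-fold with EZH2i, 3.04-fold with CBPi and 2.76-fold with FSK, or log2 fold changes of 1.03 ± 0.046 with EZH2i (adjusted p = 1.89e-13), 1.60 ± 0.046 with CBPi (adjusted p = 2.05e-16) and 1.46 ± 0.046 with FSK (adjusted p = 6.18e-16). These counts add up all XBP1 transcripts and do not separate the spliced form. ERN1, the gene of IRE1, had 107, 109 and 99.5 CPM in the EZH2i libraries, 154, 135 and 148 in the CBPi libraries and 248, 265 and 264 in the FSK libraries, against 158, 156 and 142 at baseline. The EZH2i libraries were lowest and the FSK libraries highest, with CBPi overlapping baseline. Log2 fold changes of ERN1 were -0.53 ± 0.055 with EZH2i (adjusted p = 6.2e-08), -0.063 ± 0.054 with CBPi (adjusted p = 0.334) and 0.77 ± 0.054 with FSK (adjusted p = 2.16e-10). ATF6 had 119, 112 and 113 CPM in the EZH2i libraries, 142, 141 and 141 in the CBPi libraries and 135, 129.8 and 138 in the FSK libraries, against 112, 109.6 and 112 at baseline. The EZH2i libraries overlapped baseline while CBPi and FSK lay above it, and the log2 fold changes were 0.046 ± 0.04 with EZH2i (adjusted p = 0.347), 0.35 ± 0.041 with CBPi (adjusted p = 3.67e-07) and 0.27 ± 0.041 with FSK (adjusted p = 1.1e-05).

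The CREB3 family, membrane-bound relatives of ATF6, moved in different directions. CREB3L2, known for raising secretory pathway genes, had 148, 143 and 147 CPM in the EZH2i libraries, 135, 130.0 and 125 in the CBPi libraries and 79.6, 79.0 and 83.5 in the FSK libraries, against 74.7, 75.4 and 74.4 at baseline. The inhibitor groups stood well above baseline, with log2 fold changes of 0.96 ± 0.042 for EZH2i (adjusted p = 1.95e-13) and 0.80 ± 0.043 for CBPi (adjusted p = 3.54e-12). With FSK the CREB3L2 value was 0.11 ± 0.044 (adjusted p = 0.0438), lost without FSK replicate 1 or 3 or without any 1 baseline library (adjusted p of 0.0626 to 0.177). It was also lost with no filter (log2 fold change 0.10, adjusted p = 0.24), DESeq2 (log2 fold change 0.10, adjusted p = 0.101), RLE size factors (log2 fold change 0.10, adjusted p = 0.0717) and scaling by library size alone (log2 fold change 0.039, adjusted p = 0.475). CREB3L1 (OASIS), known for collagen secretion in bone, had 3.40, 4.10 and 3.61 CPM in the EZH2i libraries, 2.57, 2.07 and 2.78 in the CBPi libraries and 0.575, 0.621 and 0.583 in the FSK libraries, against 2.05, 2.32 and 1.74 at baseline. It was higher in the EZH2i libraries and at its lowest in the FSK libraries, while CBPi overlapped baseline. Its log2 fold changes were 0.85 ± 0.15 with EZH2i (adjusted p = 7.15e-05), 0.27 ± 0.17 with CBPi (adjusted p = 0.166) and -1.78 ± 0.22 with FSK (adjusted p = 1.11e-06), and the FSK fall is 3.44-fold on raw counts of 13 to 15 per library, against 37 to 63 at baseline. CREB3 had 113, 122 and 120.2 CPM in the EZH2i libraries, 122, 116 and 124 in the CBPi libraries and 280.2, 259 and 269 in the FSK libraries, against 164, 166 and 172 at baseline. Its inhibitor libraries lay below baseline and its FSK libraries above, with log2 fold changes of -0.49 ± 0.044 with EZH2i (adjusted p = 8.49e-09), -0.47 ± 0.044 with CBPi (adjusted p = 1.89e-08) and 0.69 ± 0.044 with FSK (adjusted p = 4.06e-11). GBA2 overlaps CREB3 on the opposite strand and had log2 fold changes of 0.0096 with EZH2i, 0.23 with CBPi and 0.91 with FSK, so its rise with FSK runs beside that of CREB3, and reads shared by the pair could not be told apart. TLN1, more abundant than CREB3, also overlaps it on the opposite strand. Its log2 fold changes were -0.081 with EZH2i, -0.047 with CBPi and 0.21 with FSK.

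The secreted stress proteins also differed by agent. MANF, a neurotrophic factor that binds BiP, had 175, 172 and 167 CPM in the EZH2i libraries, 149, 155 and 149.5 in the CBPi libraries and 120.3, 103 and 112 in the FSK libraries, against 98.4, 97.0 and 104 at baseline. The inhibitor libraries lay above baseline and the FSK libraries partly overlapped it. Its log2 fold changes were 0.78 ± 0.05 with EZH2i (adjusted p = 7.29e-11), 0.60 ± 0.051 with CBPi (adjusted p = 3.79e-09) and 0.16 ± 0.051 with FSK (adjusted p = 0.0121). The FSK call of MANF was lost without FSK replicate 1 (log2 fold change 0.10, adjusted p = 0.11), without baseline replicate 2 (log2 fold change 0.14, adjusted p = 0.064) or with scaling by library size alone (log2 fold change 0.093, adjusted p = 0.134). CRELD2, a secreted disulfide-handling protein, had 25.7, 25.2 and 26.7 CPM in the EZH2i libraries, 19.8, 19.0 and 21.2 in the CBPi libraries and 25.6, 26.2 and 27.6 in the FSK libraries, against 19.0, 17.8 and 19.4 at baseline. EZH2i and FSK lay above baseline and CBPi overlapped it, with log2 fold changes of 0.47 ± 0.063 with EZH2i (adjusted p = 2.39e-06), 0.10 ± 0.066 with CBPi (adjusted p = 0.197) and 0.50 ± 0.064 with FSK (adjusted p = 1.47e-06).

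The agents were then compared with each other, in contrasts between the treated groups only. Each pair shares a group with the others, and the baseline libraries still entered the fit that estimated the spread. Values in brackets are log2 differences ± SE, the agent named first minus the other. EZH2i against CBPi gave 9 genes higher and 15 lower with EZH2i, beside 21.7% and 22.2% of all genes. The 9 higher are near the share over all genes. In alternative settings (other fits, scalings or filters, or 1 library left out), 4 genes lost their call and 2 gained one. Lost calls were those of P4HB (7 of 15 settings), PDIA3 (4 of 15), EDEM3 (2 of 15) and DERL3 (4 of 14). DERL3, with its low counts, was among the 9 higher. Beyond 1.5-fold, 0 were higher in glmTreat (background 3.55%, and 1 at an unadjusted p below 0.05) and 2 were lower (background 1.33%), SEL1L (-0.78 ± 0.04, adjusted p = 7.46e-12) and HERPUD1 (-0.71 ± 0.037, adjusted p = 9.22e-12). XBP1 was also lower with EZH2i than with CBPi, by a log2 difference of -0.57 ± 0.043. HSPA5 differed by -0.082 ± 0.037 (adjusted p = 0.0803).

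EZH2i against FSK gave 14 genes higher and 14 lower with EZH2i, beside 30.3% and 31.3% of all genes. In alternative settings 1 gene lost its call (DERL2, 4 of 15 settings) and 4 gained one, among them HSPA5 (8 of 15). In glmTreat against 1.5-fold, 3 were called higher with EZH2i (background 10.7%), CREB3L1 (2.63 ± 0.19), CREB3L2 (0.85 ± 0.042) and ERO1B (0.75 ± 0.078). Another 3 were called lower with EZH2i (background 7.81%), ERN1 (-1.30 ± 0.054), CREB3 (-1.18 ± 0.044) and P4HB (-0.74 ± 0.039). Both counts of 3 are near the shares over all genes and are not a result about the 36. The ERN1 difference, from 105 ± 5.10 CPM with EZH2i and 259 ± 9.84 with FSK, had an adjusted p of 2.85e-14. CBPi against FSK gave 15 higher and 11 lower with CBPi, beside 29.3% and 29.5% of all genes. The 11 lower are near the share over all genes and are not a result about the 36. Here 3 genes lost their call in an alternative setting (SYVN1, ERO1A and XBP1) and 5 gained one. The same test called 6 higher with CBPi (background 8.33%), namely CREB3L1 (2.06 ± 0.21), SEL1L (1.10 ± 0.041), HERPUD1 (0.95 ± 0.038), EDEM1 (0.85 ± 0.047), ERO1B (0.85 ± 0.079) and CREB3L2 (0.69 ± 0.043). CREB3 (-1.16 ± 0.044) and ERN1 (-0.83 ± 0.054) were the 2 called lower with CBPi (background 6.92%), a count near the share over all genes. In both contrasts with FSK, some estimates past 1.5-fold did not get this call and are not listed. Exposure to forskolin was shorter, so agent and duration cannot be told apart in these contrasts.

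**Figure D4:**
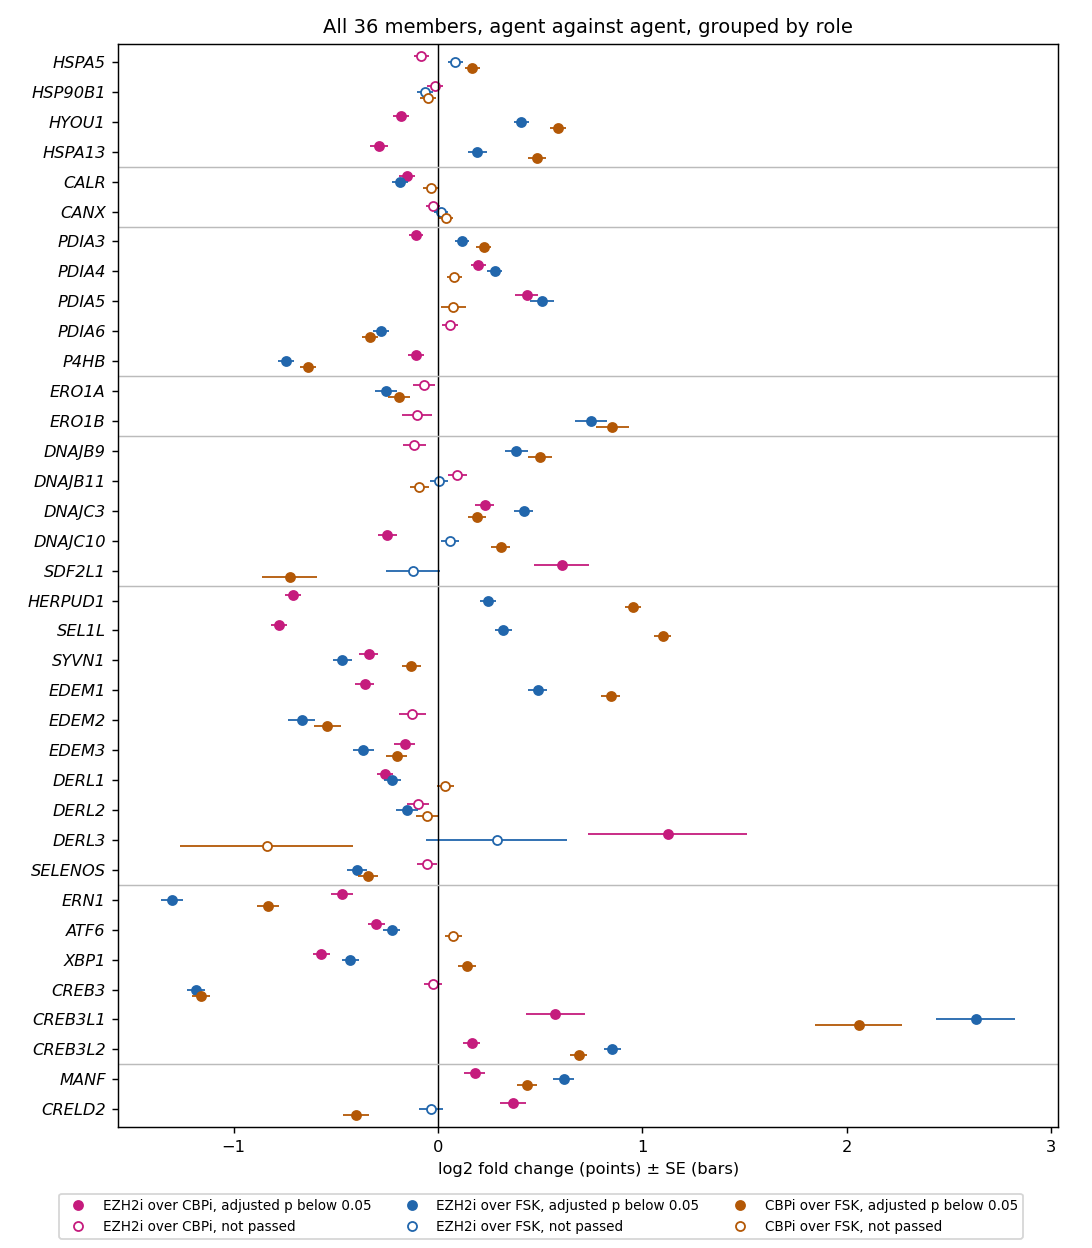
Log2 difference between pairs of agents for each of the 36 ER genes, EZH2i minus CBPi, EZH2i minus FSK and CBPi minus FSK, with bars for the SE and filled points for an adjusted p below 0.05. SEL1L and HERPUD1 lie left of 0 in EZH2i minus CBPi, and CREB3L1 lies farthest right in both contrasts with FSK.

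Genes with and without a promoter site are described only, since the sites were known from this family. The 8 genes with an ERSE had a median log2 fold change of 0.46 with EZH2i (7 higher), 0.43 with CBPi (7 higher) and 0.51 with FSK (7 higher, and ERO1B lower). The 22 genes with a window and neither ERSE nor ERSE-II had medians of 0.39 with EZH2i (13 higher, 4 lower), 0.35 with CBPi (17 higher, 1 lower) and 0.39 with FSK (20 higher, 1 lower). Both sets thus held rising genes, and EDEM1, SEL1L, DNAJB9 and MANF rose without an exact site in the window.

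Beyond the 36, lists of neighbouring pathways were counted. Of all genes tested, 29.5% were higher and 28.3% lower with EZH2i, 29.8% and 29.0% with CBPi, and 25.5% and 25.1% with FSK. The PERK arm and integrated stress response, which shares the ATF4 programme, had 14 of 17 genes higher and 2 lower with EZH2i (median log2 fold change 1.02), 15 higher and 1 lower with CBPi (median 1.98) and 12 higher and 2 lower with FSK (median 0.57). EIF2AK3, which encodes PERK, was 0.87 ± 0.054 with EZH2i (adjusted p = 3.78e-11), 0.74 ± 0.055 with CBPi (adjusted p = 5.41e-10) and 0.13 ± 0.057 with FSK (adjusted p = 0.0602). DDIT3 (CHOP), a stress factor downstream of ATF4, averaged 43.1 ± 1.32 CPM with EZH2i, 94.6 ± 8.26 with CBPi and 45.4 ± 3.75 with FSK, against 16.0 ± 0.509 at baseline (SD, n = 3), log2 fold changes of 1.43 with EZH2i, 2.56 with CBPi and 1.503 with FSK. ATF4 rose by log2 fold changes of 0.13 with EZH2i, 0.41 with CBPi and 0.57 with FSK. TRIB3, a pseudokinase induced by ATF4, was the largest rise of this list with FSK, at 493 ± 15.4 CPM, against 71.2 ± 1.55 at baseline (log2 fold change 2.79 ± 0.055, adjusted p = 6.15e-19). NUPR1, a stress-induced nuclear protein, had 21.6 ± 1.51 CPM with EZH2i, 47.7 ± 4.53 with CBPi and 3.42 ± 0.696 with FSK, against 4.62 ± 0.369 at baseline, a rise with EZH2i and CBPi and a fall with FSK (-0.44, adjusted p = 0.0188). VLDLR, a lipoprotein receptor, fell with each agent, by log2 fold changes of -0.68 with EZH2i, -0.63 with CBPi and -2.84 with FSK.

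N-glycosylation and glucose trimming enzymes had 10 of 16 higher and 4 lower with EZH2i, 11 higher and 3 lower with CBPi, and 13 higher and 1 lower with FSK. UGGT1, which puts glucose back on unfolded glycoproteins so that the lectins bind again, rose on the log2 scale by 0.42 with EZH2i and 0.70 with CBPi, while the oligosaccharyltransferase subunit STT3B fell by 0.78 on the log2 scale with EZH2i. The translocon and signal peptidase list had 6 of 17 higher and 4 lower with EZH2i, 9 and 3 with CBPi, and 12 and 1 with FSK. Its EZH2i counts lie near the 29.5% higher and 28.3% lower over all genes. SEC61A1, the pore subunit, rose on the log2 scale by 0.45 with EZH2i and 0.55 with CBPi, and SEC11C, a signal peptidase subunit, by 0.90 with FSK. COPII transport genes had 9 of 16 higher and 3 lower with EZH2i, 6 and 5 with CBPi, near the shares over all genes, and 10 and 2 with FSK. SEC24D, a coat subunit that selects cargo, rose by log2 fold changes of 1.55 with EZH2i, 1.24 with CBPi and 0.59 with FSK. Prolyl isomerases and nucleotide exchange factors had 5 of 11 higher and 2 lower with EZH2i, 6 and 2 with CBPi, and 8 and 2 with FSK, with FKBP11 the largest rise in each (0.66 with EZH2i, 0.84 with CBPi and 1.17 with FSK). Further disulfide isomerases and thioredoxins had 3 of 9 tested higher and 2 lower with EZH2i, near the shares over all genes, 7 and 1 with CBPi, and 5 and 1 with FSK.

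Further ER-associated degradation genes had 5 of 18 higher and 7 lower with EZH2i, beside 29.5% higher and 28.3% lower over all genes, 5 and 5 with CBPi, beside 29.8% and 29.0%, and 8 and 3 with FSK, beside 25.5% and 25.1%. The EZH2i and CBPi counts of higher genes are about the shares over all genes and are not a result about this list, which had median log2 fold changes of -0.047, 0.0017 and 0.018 in that order. OS9, a lectin that delivers substrates to HRD1, rose on the log2 scale by 0.33 with EZH2i and 0.51 with CBPi, whereas UFD1, a cofactor of the VCP ATPase, was -0.41 and -0.66. Further sensors and proteases of the response had 4 of 11 tested higher and 5 lower with EZH2i, 5 and 3 with CBPi, and 4 and 1 with FSK, beside the same shares over all genes. MBTPS1, the first protease that cuts ATF6, was -0.017 with EZH2i (adjusted p = 0.709), 0.23 with CBPi (adjusted p = 2.15e-05) and -0.10 with FSK (adjusted p = 0.0359). MBTPS2, the next protease, was -0.19, 0.27 and 0.0036 in the same order, of which the FSK value did not pass. ATF6B, the paralog of ATF6, rose by log2 fold changes of 0.28 with EZH2i, 0.30 with CBPi and 0.18 with FSK. Cytosolic and mitochondrial heat shock chaperones, the counterpart of these genes outside the ER, had 1 of 14 higher and 6 lower with EZH2i, 2 and 10 with CBPi, and 5 and 4 with FSK, again beside those shares. HSPD1, the mitochondrial Hsp60, had 321 ± 9.75 CPM with EZH2i, 461 ± 23.8 with CBPi and 2243 ± 64.1 with FSK, against 1159.6 ± 14.7 at baseline (SD, n = 3). It fell with both inhibitors and rose with FSK, at log2 fold changes of -1.85 with EZH2i, -1.33 with CBPi and 0.95 with FSK.

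**Figure D5:**
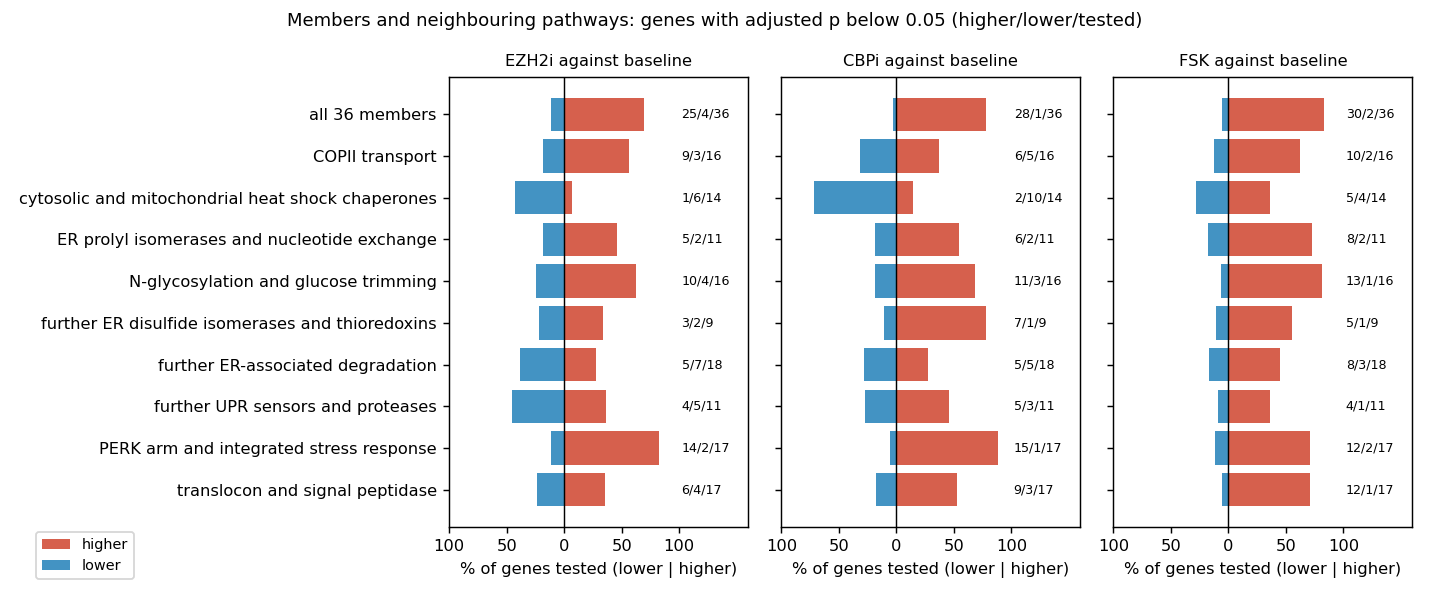
Percent of the genes tested in each list that were higher (right of 0) or lower (left of 0) than baseline at an adjusted p below 0.05, for EZH2i, CBPi and FSK. Labels give the number higher, lower and tested; the 36 ER genes had 25/4/36, 28/1/36 and 30/2/36, and cytosolic and mitochondrial heat shock chaperones 1/6/14, 2/10/14 and 5/4/14.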

How the data were processed

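The 12 libraries held polyadenylated RNA of NCI-H295R cells. Reads were aligned with STAR to hg38 and counted with featureCounts, per the submitters' processing notes, with versions, annotation release and treatment of strand and multimapping reads not given in the sources used here. Values in the table deposited by the authors are expected counts, of which 65.6% of the nonzero ones were whole within 1e-06. Their column of gene length, another unit deposited beside the counts, served for levels per kilobase. Value columns left unmatched to the labels numbered 0. Symbols were available for 60261 genes, and gene positions came from GENCODE 29. Of the 36 genes, 28 had fractional counts in at least 1 library, 25 are overlapped by another annotated gene and 3 have pseudogenes in the table (HSP90B1, PDIA3 and XBP1), so reads may be shared or split there.

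After rounding, edgeR 4.0.16 (R 4.3.3, limma 3.58.1) kept 20360 genes by filterByExpr, libraries were scaled by TMM, and 1 robust quasi-likelihood model of all 12 libraries gave 6 contrasts, with Benjamini-Hochberg adjustment over all genes tested and a threshold of 0.05. glmTreat tested against 1.5-fold. Each SE was taken as the log2 fold change over root F. The common dispersion was 0.00248, a coefficient of variation of 4.98% between replicates. CPM are TMM-scaled. Promoter windows came from RefSeq (GRCh38.p14) and were searched in Python 3.11.15 on both strands. The steps were tested on simulated data. Alternatives were DESeq2 1.42.0, other scalings, filters and fits, and each library left out. The genes and lists were chosen with earlier results of these data known. All 36 may be named; of other lists, up to 2 largest rises and 2 largest falls per comparison, and the partners EIF2AK3, ATF4, DDIT3, MBTPS1, MBTPS2 and ATF6B. Protein sequences were not analysed here.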

Additional observations from a re-analysis of the deposited data

How the results depend on the processing

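Of 3232 values of single genes under an alternative, 3119 kept their side of the threshold, 84 lost the call and 29 gained one. Of the values that passed in the main fit or the alternative, 0 changed sign. Values that passed in neither were counted as kept whatever their sign. The test against 1.5-fold lowered the counts of genes higher and lower to 8 and 0 for EZH2i against baseline, 10 and 0 for CBPi, 5 and 1 for FSK, 0 and 2 for EZH2i against CBPi, 3 and 3 for EZH2i against FSK, and 6 and 2 for CBPi against FSK; its stricter null sets these. The number lower with EZH2i ranged from 2 to 5 with 1 library left out, and was 2 without baseline replicate 3, where EDEM2 and SYVN1 lost their calls. The median log2 fold change over the 36 for EZH2i against baseline (0.44) was 0.45 by upper quartile, 0.46 by library size only, 0.42 in a fit of only the 2 groups, and 0.41 to 0.45 with 1 library left out. For EZH2i against CBPi it was -0.082 by upper quartile, -0.072 by library size only and -0.10 to -0.084 with 1 library left out. Scaling by library size only gave medians of 0.10 for EZH2i against FSK, 0.12 for CBPi against FSK and 0.38 for FSK against baseline. The medians over all genes tested moved as well, to 0.091, 0.063 and -0.054 in the same order, from -0.00079, 0.00049 and 0.015 with TMM. The cause was not tested. No paired analysis was possible because the labels give no replicate numbers. The replicate numbers used here follow the order of the samples within each group and do not match cultures across groups. Totals of 20.6 to 31.5 megacounts limit what can be said of DERL3 and CREB3L1, the least abundant of the genes.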
